A study of Arabidopsis thaliana with 18 samples.

Results

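Cysteine-rich receptor-like kinases (CRK) and receptor-like proteins (RLP), both families of cell-surface receptors of Arabidopsis, were followed across root and shoot at 0, 1.25 and 20 mM phosphate. A row of the array table belonged to them when it stood for exactly 1 gene whose symbol was CRK or RLP followed by digits only, and a gene had 1 row. This gave 26 genes of 38408 rows, 10 of them CRK (CRK4, CRK5, CRK7, CRK10, CRK11, CRK18, CRK22, CRK26, CRK39 and CRK40) and 16 RLP (RLP7, RLP20, RLP21, RLP24, RLP30, RLP32, RLP33, RLP35, RLP36, RLP37, RLP38, RLP40, RLP42, RLP46, RLP51 and RLP52). The reference gene table (TAIR10.1) lists 94 loci with such symbols, 40 CRK and 54 RLP, so most of each family is not described here. The rows of RLP50 and CRK42 each stood for more than 1 locus and were left out.

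All plants were wild-type Col-0 seedlings, precultured hydroponically for 5 days in MS medium of reduced strength with sucrose and then kept for 7 days without phosphate (P0), at the control level of 1.25 mM (P1.25) or at 20 mM (P20). In the P0 medium the potassium phosphate salt was replaced by potassium sulfate. RNA of roots and of shoots was hybridized to AraGene 1.0 ST arrays, with 3 replicates in each of the 6 groups, 18 arrays in all. The methods describe the replicates as independent biological experiments. Values are log2 intensities after robust multi-array averaging (RMA), and the number of arrays limits their precision.

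CRK proteins carry an extracellular part with the cysteine-rich DUF26 motif, a membrane span and an intracellular kinase. Many of their genes are known to be induced by pathogens, salicylic acid and reactive oxygen. RLP proteins have extracellular leucine-rich repeats and a membrane span but no kinase, and those that sense microbial patterns act through the adaptor kinase SOBIR1 and co-receptors of the BAK1 family.

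How the genes got their names bears on what can be read from them. The annotation of the platform named none of them, and all 26 symbols came from parts of the study's supplementary tables. The table of transcripts changed at P0 in root named 16 (CRK7, CRK18, CRK22, CRK26, CRK39, CRK40, RLP7, RLP24, RLP30, RLP32, RLP35, RLP36, RLP37, RLP38, RLP51 and RLP52) and that for shoot named 11 (CRK4, CRK5, CRK11, CRK22, RLP20, RLP21, RLP33, RLP36, RLP40, RLP42 and RLP46), with CRK22 and RLP36 in both. CRK10 was named only from the leading rows of a table of all transcripts sorted by the p of the treatment. The root change at P0 of the root-table genes, the shoot change at P0 of the shoot-table genes and both P0 changes of CRK10 are therefore descriptions without a test. The P20 changes did not enter the P0 tables, but they share the P1.25 arrays with the P0 changes, and the treatment p that named CRK10 covers all 3 phosphate levels. The differences of root from shoot are descriptions too. Of the root-table genes, 13 of 16 were named for being lower in P1.25 roots than in P0 roots, and of the shoot-table genes, 8 of 11 for being higher in P1.25 shoots than in P0 shoots, and either way of naming favours genes that are lower in root than in shoot when phosphate is supplied.

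**Figure D1:**
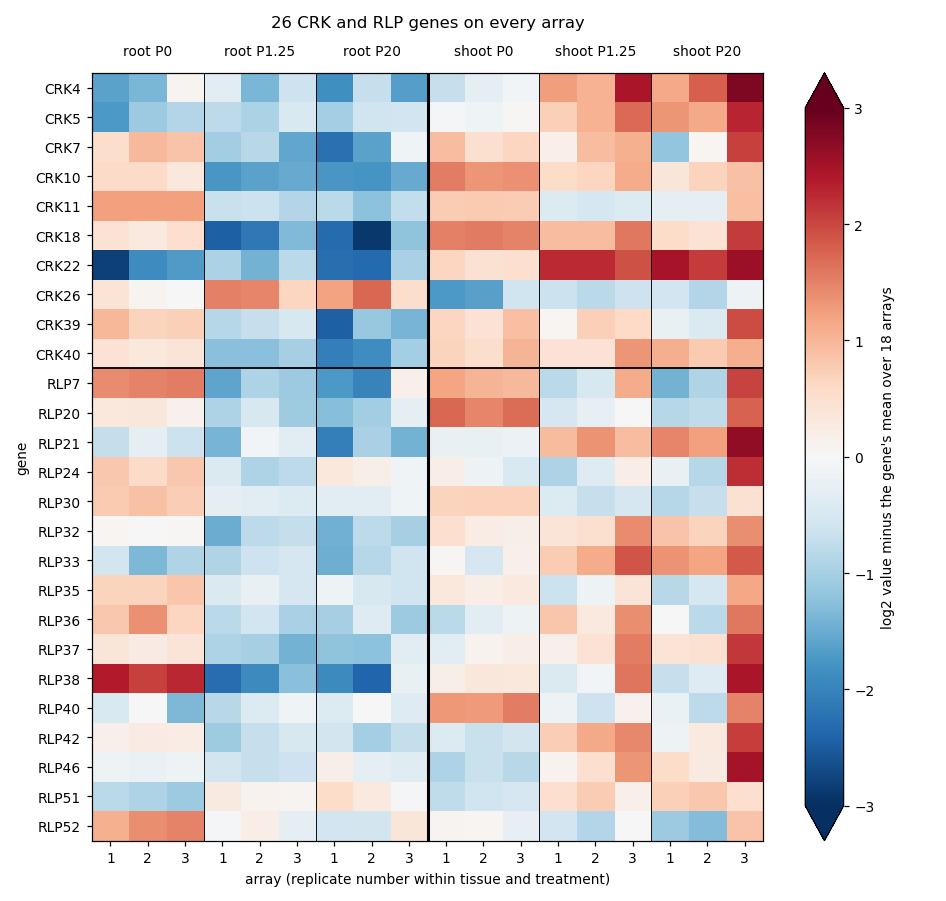
Log2 value of each of the 26 genes (rows) on each of the 18 arrays (columns, by tissue, phosphate level and replicate), minus the gene's mean over 18 arrays, with colours ending at 3 log2 units either way. Root P1.25 and P20 arrays are mostly blue, root P0 arrays mostly red, and the third array of P20 shoots is the reddest column of its group for 24 of 26 genes.

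Mean levels over the 18 arrays ran from 4.16 for RLP36 to 8.37 for CRK10, with a median of 5.82 against 5.54 over all rows. Of the 26 genes, 10 had their highest group mean in P0 roots, 10 in P20 shoots, 4 in P0 shoots, 1 in P1.25 roots (CRK26) and 1 in P1.25 shoots (RLP42). Probe intensities of different genes are not on a common scale per length, so these levels do not order the genes by abundance.

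In the arrays with phosphate supplied, 23 of the 26 named genes had a lower mean in root than in shoot. Their naming favours that direction at P1.25. It also does so at P20 as far as P20 and P1.25 values are alike, and few rows were called between them in the fit to all arrays. Nothing about the families is read from the counts that follow. At P20, limma called 18 of the 26 genes between the tissues (adjusted p under 0.1 and beyond 2-fold), 17 lower and 1 higher in root, where 16.7% of all rows were called (9.53% lower and 7.19% higher in root). All 3 root arrays lay on 1 side of all 3 shoot arrays for 15 of the 26 genes, 14 lower and 1 higher in root, against 41.1% of all rows. The median difference, root minus shoot, was -1.57 on the log2 scale, against 0.0426 over all rows. The comparison at P20 was added after the values had been seen. At P1.25, 16 genes were lower and 1 higher in root, with 17.2% of all rows called, and those arrays also enter the contrasts that gave the names. At both levels all 7 root markers with a row were called higher in root and all 9 photosynthesis genes lower. Of these, 5 root markers and 6 photosynthesis genes were also named only from the study's tables. The tissue labels held against the markers named by the platform, with EXPA7 and EXPA18 higher in root and LHCB4.2, RCA and SBPASE lower. In whole tissues, fewer cells of a type and less RNA per cell cannot be told apart.

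CRK22 and CRK4 had the largest differences at P20. CRK22 had 3.01, 2.94 and 4.31 in P20 roots, against 7.75, 7.37 and 7.84 in P20 shoots, a difference of -4.23. CRK4, a kinase whose overproduction strengthens pattern-triggered defence, had 2.83, 3.98 and 3.03 in P20 roots, against 5.82, 6.46 and 7.47 in P20 shoots (-3.30). All root arrays lay below all shoot arrays for both. CRK18 differed by -3.16, CRK40 by -2.64 and CRK10 by -2.31, and CRK5, whose overproduction triggers cell death in leaves, by -2.32.

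Among the RLP genes, RLP21 had 2.91, 3.98 and 3.54 in P20 roots, against 6.43, 6.19 and 7.62 in P20 shoots (-3.27). RLP33 differed by -2.43 and RLP32, the receptor of a bacterial translation initiation factor, by -2.04, again without overlap of the arrays. CRK26 was the 1 gene higher in root, with 6.27, 6.79 and 5.60 in P20 roots, against 4.49, 4.19 and 4.92 in P20 shoots (1.69). RLP20, RLP24, RLP30, RLP35, RLP40, RLP51, RLP52 and RLP7 did not pass, with differences between -1.09 for RLP7 and 0.26 for RLP52. Without the third array of P20 shoots the count at P20 was 12 genes, with the calls of CRK7, CRK11, RLP36, RLP38, RLP42 and RLP46 lost.

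**Figure D2:**
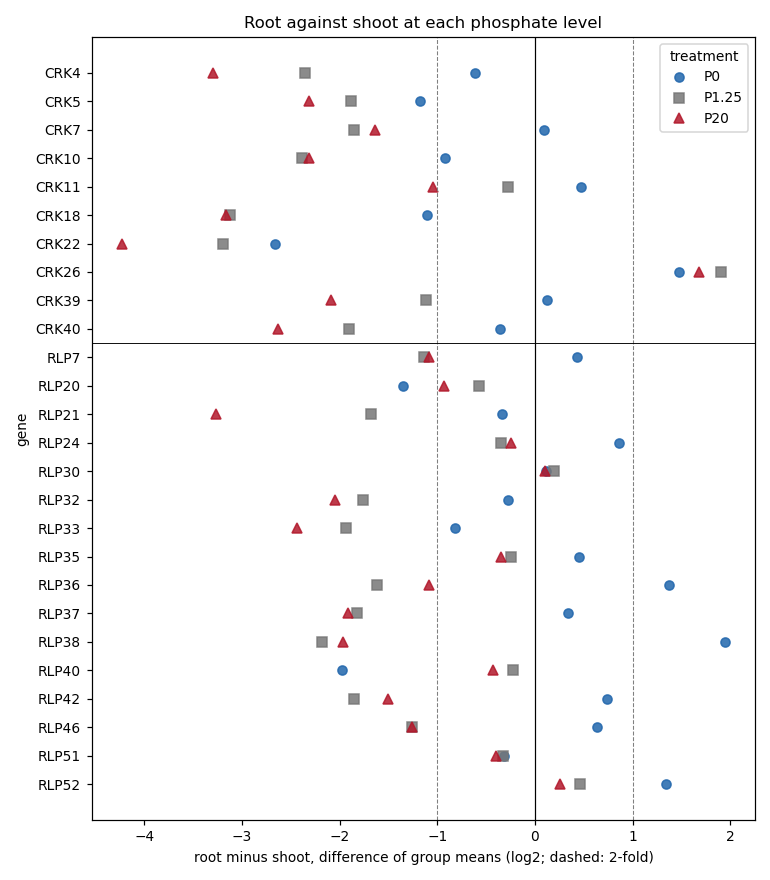
Difference of the root mean from the shoot mean (log2, x axis) of each gene (y axis) at P0 (circles), P1.25 (squares) and P20 (triangles), with dashed lines at 2-fold. At P1.25 and at P20 the difference is below 0 for 23 of 26 genes, and at P0 for 12.

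At P0 this difference between the tissues was small for many of the genes. Roots had the lower mean for 12 genes at P0, for 23 at P1.25 and for 23 at P20, and the median difference of root from shoot was 0.102, -1.65 and -1.57 at the 3 levels. Over all rows, 47.1%, 47.4% and 46.5% were lower in root. The gap was smaller in size at P0 than at P1.25 for 20 of the 26 genes, against 56.8% of all rows. Because of how the names were given, these counts are given as a description.

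In roots, limma called 18 of the 26 genes between P0 and P1.25, 15 higher and 3 lower at P0, where 9.23% of all rows were called (4.69% higher and 4.54% lower). All 16 root-table genes are among the 18, as their naming requires, and nothing is read from that count. Their changes ran from the smallest in size, RLP32 with 1.02, just past the 2-fold limit of the tables, to RLP38 with 4.06, and genes just below the limit carry no name here. The P0 arrays did not overlap the P1.25 arrays for 21 of the 26 genes, 18 higher and 3 lower, against 41% of all rows.

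RLP38 moved most. It had 9.71, 9.38 and 9.58 in P0 roots, against 5.04, 5.41 and 6.07 in P1.25 roots, which gave a change of 4.06 (SE 0.73). RLP7 had 7.87, 7.94 and 7.98 in P0 roots, against 4.85, 5.52 and 5.35 in P1.25 roots (2.69, SE 0.75). In both genes the P0 arrays stood well clear of the P1.25 arrays and lay close together.

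Of the 6 CRK genes in a cluster on chromosome 4, CRK7, CRK10, CRK11 and CRK18 changed by 1.92 to 2.38 in root, and CRK22 (-1.07) and CRK5 (-0.50) by negative values. CRK18 had 7.28, 7.15 and 7.37 in P0 roots, against 4.40, 4.71 and 5.54 in P1.25 roots (2.38, SE 0.45). CRK10, a kinase whose activated form makes plants dwarfed and defence-active, had 8.95, 8.94 and 8.70 in P0 roots, against 6.64, 6.76 and 6.86 in P1.25 roots (2.11, SE 0.16). CRK7, which affects tolerance of extracellular superoxide, changed by 1.92 (SE 0.64). None of the P0 arrays overlapped the P1.25 arrays in these 3 genes.

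The remaining root-table rises lay between 1.02 and 1.72. CRK40 changed by 1.55 (SE 0.26) and CRK39 by 1.45 (SE 0.48). RLP24 changed by 1.45, RLP37 by 1.45, RLP52, known from resistance to a powdery mildew fungus, by 1.35, and RLP35 by 1.12. RLP30, which senses a pattern of necrotrophic fungi and bacteria, had 7.87, 7.96 and 7.83 in P0 roots, against 6.79, 6.77 and 6.68 in P1.25 roots (1.14, SE 0.24).

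The 3 falls in root were all close to 2-fold. RLP51, the gene of SNC2 whose gain-of-function form switches on defence, had 5.96, 5.84 and 5.68 in P0 roots, against 7.03, 6.87 and 6.85 in P1.25 roots (-1.09, SE 0.17). CRK26 had 5.49, 5.14 and 5.08 in P0 roots, against 6.59, 6.54 and 5.71 in P1.25 roots (-1.05, SE 0.34). CRK22 had 2.48, 3.39 and 3.59 in P0 roots, against 4.34, 3.86 and 4.48 in P1.25 roots (-1.07, SE 0.34). The P0 and P1.25 arrays did not overlap in any of the 3, but the fold rule depended on scaling. After quantile normalization 1 of the 3 still passed (RLP51), and after centring each array on its median none did. The median of all rows was -0.0901 in this comparison.

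Of the 9 genes named only from the shoot table, 1 was called in root. These 9 are by definition genes that the held part of the root table did not list, so the count is not set against all rows. CRK11, which is induced by salicylic acid, had 8.88, 8.90 and 8.89 in P0 roots, against 7.00, 7.01 and 6.79 in P1.25 roots, and rose by 1.96 (SE 0.24, limma adjusted p = 5.9e-05). The remaining 8 were not called. RLP20 had a change of 1.09 (adjusted p = 0.143) and RLP42 of 0.95 (adjusted p = 0.111), both with P0 arrays above all P1.25 arrays. CRK4, CRK5, RLP21, RLP33, RLP40 and RLP46 lay between -0.50 and 0.45, and of these RLP46 (0.45) also had its P0 arrays above all P1.25 arrays. RLP42 was called when the third arrays of the P1.25 and P20 groups were left out, and RLP20 when the third array of P20 shoots was.

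**Figure D3:**
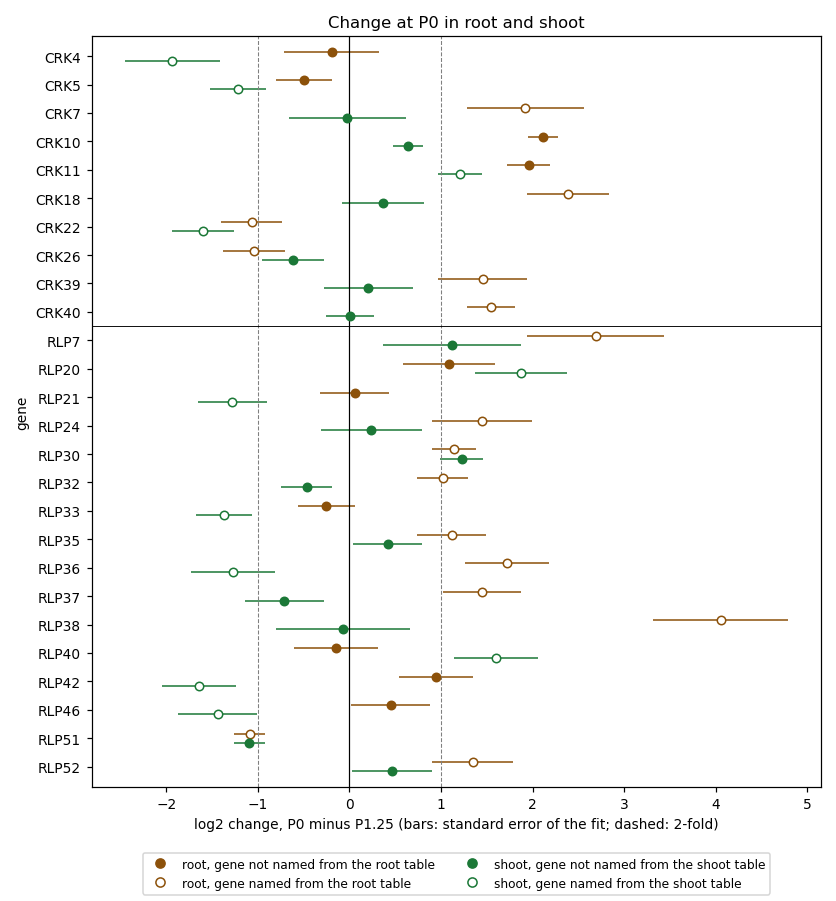
Log2 change at P0 relative to P1.25 (x axis, with the standard error of the fit) of each gene (y axis) in root (brown) and shoot (green), with dashed lines at 2-fold. Open circles mark the change that gave the gene its name, and CRK10 was named from the treatment p over both tissues. Root values reach 4.06 (RLP38) and shoot values run from -1.93 (CRK4) to 1.87 (RLP20).

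In shoots, 13 of the 26 genes were called at P0, 4 higher and 9 lower, where 13.7% of all rows were called (6.12% higher and 7.62% lower). All 11 shoot-table genes are among them by the way they were named, 3 higher and 8 lower, and the smallest of their changes were 1.21 for CRK11 and -1.21 for CRK5. The arrays of P0 and P1.25 did not overlap for 14 of the 26 genes, 5 higher and 9 lower, against 45.2% of all rows. RLP20 had 7.99, 7.73 and 7.96 in P0 shoots, against 5.78, 6.02 and 6.28 in P1.25 shoots (1.87, SE 0.50). RLP40 had 5.71, 5.67 and 5.94 in P0 shoots, against 4.24, 3.77 and 4.52 in P1.25 shoots (1.60, SE 0.46). Both were higher on every P0 array.

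The falls in shoot were led by CRK4 with 3.98, 4.39 and 4.60 in P0 shoots, against 5.92, 5.73 and 7.13 in P1.25 shoots (-1.93, SE 0.52). RLP42, the receptor of fungal endopolygalacturonases, had 7.23, 6.97 and 7.09 in P0 shoots, against 8.37, 8.77 and 9.08 in P1.25 shoots (-1.64, SE 0.40). CRK22 changed by -1.60, RLP46 by -1.44, RLP33 by -1.37, RLP21 by -1.28, RLP36 by -1.27 and CRK5 by -1.21. Without the third array of P1.25 shoots, CRK5 and RLP36 were no longer called.

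Of the 14 genes named only from the root table, RLP30 rose and RLP51 fell in shoot, and the other 12 were not called. These 14 are by definition genes that the held part of the shoot table did not list, so the count is not set against all rows. RLP30 had 7.76, 7.79 and 7.78 in P0 shoots, against 6.68, 6.39 and 6.58 in P1.25 shoots, a rise of 1.23 (SE 0.24, limma adjusted p = 0.00131). RLP51 had 6.01, 6.16 and 6.26 in P0 shoots, against 7.28, 7.52 and 6.91 in P1.25 shoots, a change of -1.10 (SE 0.17, adjusted p = 0.000236). The P0 and P1.25 arrays of both genes were fully separated, and for both the shoot change was close to the root change.

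Several genes with the largest root changes were not called in shoot. RLP38 had 7.51, 7.68 and 7.64 in P0 shoots, against 6.89, 7.24 and 8.93 in P1.25 shoots (-0.07, SE 0.73, adjusted p = 0.954). CRK7 changed by -0.03, CRK40 by 0.002 and CRK18 by 0.37 in shoot, none of them called. RLP7 had 7.62, 7.47 and 7.42 in P0 shoots, against 5.63, 5.96 and 7.56 in P1.25 shoots (1.12, adjusted p = 0.285), and was called when the third arrays of the P1.25 and P20 groups were left out. In RLP38 and RLP7 the third array of P1.25 shoots lay far above the other 2. CRK10, also left without a test, had 9.91, 9.70 and 9.75 in P0 shoots, against 8.92, 9.01 and 9.50 in P1.25 shoots (0.64, SE 0.16).

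At P0, 5 genes were called in both tissues, and 4 of these 5 moved the same way: CRK11 and RLP30 were higher, and CRK22 and RLP51 lower, at P0 in root and in shoot. RLP36 moved in opposite directions. It had 4.96, 5.54 and 4.80 in P0 roots, against 3.36, 3.59 and 3.19 in P1.25 roots (1.72, SE 0.46), and it averaged 3.73 ± 0.34 in P0 shoots and 5.00 ± 0.56 in P1.25 shoots (SD, n = 3 each; -1.27, SE 0.46). RLP36 was the gene with the lowest mean level, and the arrays of P0 and P1.25 did not overlap in either tissue. Among all rows called in both tissues, 93 of 1290 moved in opposite directions.

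**Figure D4:**
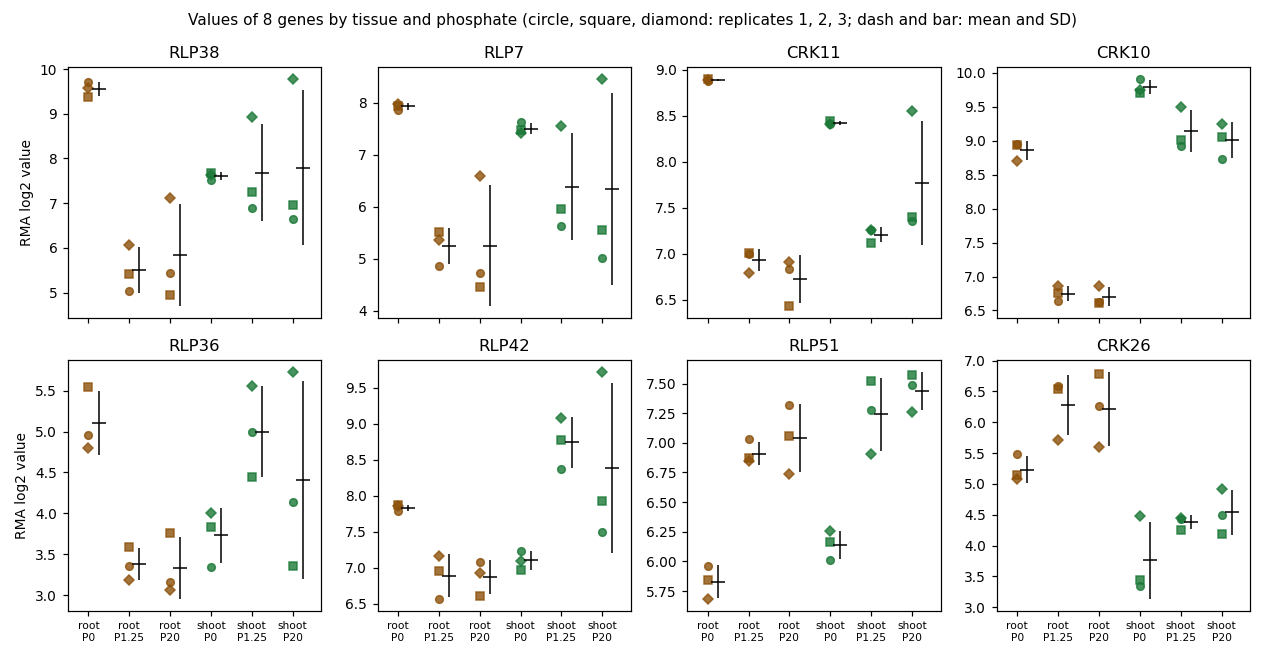
RMA log2 value (y axis) of 8 genes on each array by tissue and phosphate level (x axis), with the replicates as circles, squares and diamonds and the mean and SD beside them (n = 3). RLP38 and RLP7 are high on all P0 root arrays and widely spread in P1.25 and P20 shoots, RLP36 is higher in P0 roots and lower in P0 shoots, and RLP51 is lower at P0 in both tissues.

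The change at P0 was larger in root than in shoot for 22 of the 26 genes, against 50.1% of all rows. As an interaction term, limma called 10 genes at an adjusted p under 0.1, 9 with the larger value in root and 1 in shoot, where 17.1% of all rows were called. At least 1 of the 2 changes behind each difference had served for naming, and nothing is read from these counts. RLP38 differed by 4.13, RLP36 by 2.99, RLP42 by 2.59, RLP37 by 2.16 and CRK18 by 2.01. RLP40 was the reverse case with -1.74 (SE 0.65), with 3.95, 4.41 and 3.06 in P0 roots, against 3.57, 3.99 and 4.28 in P1.25 roots, and was called only in shoot.

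Many of these receptor genes lie near each other in the genome. By the reference gene table, 17 of the 26 genes fell into 6 groups in which each gene started within 50 kb of another of its group. On chromosome 4 these were CRK5, CRK7, CRK10, CRK11, CRK18 and CRK22, and CRK39 with CRK40. On chromosome 2 they were RLP20 with RLP21, and on chromosome 3 RLP32 with RLP33, RLP36 with RLP37 and RLP38, and RLP40 with RLP42. Not every pair was that close, since CRK22 started further from CRK5 and CRK7, and RLP36 from RLP38. Neighbours often differed in their P0 change. In shoot, RLP20 changed by 1.87 and RLP21 by -1.28, and RLP40 by 1.60 and RLP42 by -1.64. In root, RLP38 changed by 4.06, RLP36 by 1.72 and RLP37 by 1.45, and within the large CRK cluster CRK18 changed by 2.38 but CRK22 by -1.07 and CRK5 by -0.50. CRK39 and CRK40 were close in both tissues (1.45 and 1.55 in root, 0.21 and 0.002 in shoot). No gene shared its values with another row, but members of such clusters have similar sequences, and how far their probes tell them apart was not tested.

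None of the 26 genes passed the test at high phosphate. At P20, limma called 0 of the 26 genes against P1.25 in root (0.0469% of all rows were called) and 0 in shoot (0.0365% of all rows). At an unadjusted p under 0.05 there were 2 genes in root, both lower at P20, and 1 in shoot, higher at P20. The share of all rows at that limit was not counted, so nothing is read from these counts. The model without moderation also called 0 in each tissue. CRK22 had the smallest adjusted p in root (0.84), with 3.01, 2.94 and 4.31 in P20 roots, against 4.34, 3.86 and 4.48 in P1.25 roots (-0.80, SE 0.34), and RLP21 came next (-0.88, adjusted p = 0.856). CRK11 had the smallest in shoot (0.526), with 7.36, 7.40 and 8.55 in P20 shoots, against 7.26, 7.12 and 7.26 in P1.25 shoots (0.56, SE 0.24), and RLP21 had 0.72 (adjusted p = 0.615). The interaction at P20 called 0 genes (0.0104% of all rows). At an unadjusted p under 0.05 it had 3, again without a share of all rows to read them against.

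Over all 26 genes the changes at P20 ran from -0.99 (CRK39) to 0.85 (RLP24) in root. In shoot they ran from -0.59 (RLP36) to 0.75 (RLP24), and none was called. The other genes named in every comparison had changes between -0.40 and 0.43 at P20. Relative to P1.25, CRK5 changed by -0.002 in root and 0.43 in shoot, CRK7 by -0.18 and -0.40, CRK10 by -0.06 and -0.14, RLP30 by 0.09 and 0.18, RLP42 by -0.02 and -0.36, RLP51 by 0.13 and 0.20 and RLP52 by -0.22 and -0.02. With the third arrays of the P1.25 and P20 groups left out, 1 gene was called lower in each tissue. These were CRK40 in root (-0.70, limma adjusted p = 0.069) and RLP42 in shoot (-0.87, adjusted p = 0.0828). In that fit, 2.61% of all rows were called at P20 in root and 3.1% in shoot. With all arrays these shares were 0.0469% and 0.0365%, so the number of calls at P20 depended on the third arrays over all rows too.

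The spread behind these tests was large, and in shoot it lay mostly in the third arrays. The median SD of the 26 genes was 0.143, 0.265 and 0.481 in root at P0, P1.25 and P20, and 0.135, 0.462 and 0.949 in shoot at P0, P1.25 and P20, whereas over all rows it stayed between 0.147 and 0.256 in every group. In P20 shoots the third array was the highest of its group for 24 of the 26 genes, against 34.8% of all rows, and 19 genes lay over 1 log2 unit above the mean of the other 2 arrays, against 4.47% of all rows. The exceptions were CRK40 and RLP51. In P1.25 shoots the third array was highest for 21 genes, against 39.4% of all rows, with a median excess of 0.682, and in P20 roots for 14, against 34.4% of all rows, with a median excess of 0.232. The first array of P20 roots departed further, with a median of -0.434 from the mean of the other 2 arrays.

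RLP7 and RLP38 showed this most. RLP7 had 5.02, 5.55 and 8.46 in P20 shoots, and the third array lay 3.18 above the mean of the others. RLP38 had 6.65, 6.95 and 9.78 there, an excess of 2.98, and RLP24 had 5.83, 5.20 and 8.27, an excess of 2.76. On that array RLP7, RLP38 and RLP24 stood above all 3 arrays of P0 shoots. At P0 the replicates were close, and the third array was the highest for 9 genes in root and 11 in shoot.

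**Figure D5:**
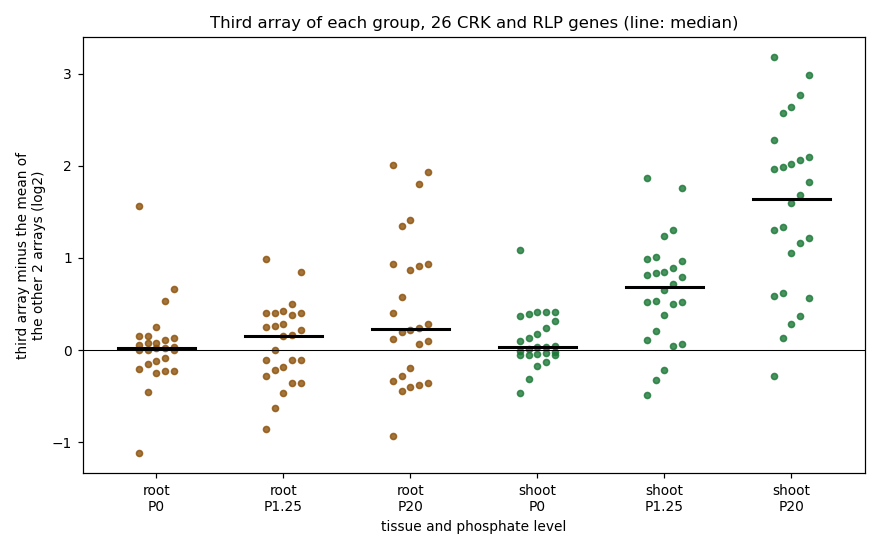
Excess of the third array over the mean of the other 2 arrays of its group (log2, y axis) for the 26 genes, by tissue and phosphate level (x axis), with the median as a line. The median is 1.64 in P20 shoots and 0.682 in P1.25 shoots, and close to 0 at P0 in both tissues.

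Other immune genes were high on the third arrays of both P20 groups, and less uniformly on that of P1.25 shoots. The third array of P20 shoots was the highest of its group for 9 of 9 genes of the salicylic acid pathway, with a median excess of 1.95 and a maximum of 4.18 in PR1, the marker gene of that pathway (4.44 on the lowest and 9.70 on the third array of P20 shoots). The same array was the highest for 4 of 4 immune receptors and co-receptors, 3 of 3 kinases and oxidases downstream of them and 5 of 5 output genes of pattern-triggered immunity. SOBIR1, the adaptor kinase of RLPs, had 8.99, 8.91 and 10.71 in P20 shoots. In P20 roots the third array was the highest for 8 of the 9 salicylic acid genes and for 5 of 5 output genes. In P1.25 shoots it was the highest for 4 of 4 immune receptors and co-receptors (median excess 0.896) and 3 of 3 kinases and oxidases (1.48), but for 5 of 9 salicylic acid genes (0.284) and 2 of 5 output genes (0.0508). In P1.25 roots it was the highest for 3 of 9 salicylic acid genes, with a median excess of -0.229.

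The tissue markers of the third arrays also stood apart. Of 9 photosynthesis genes taken as shoot markers, the third array was the highest for none in P20 shoots (median excess -0.968) and for 8 in P20 roots (median excess 0.802). Of 7 root markers it was the highest for 4 in P20 shoots (median excess 0.673) and for none in P20 roots (median excess -0.547). What these markers contribute to the values of the receptor genes was not tested.

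Partner genes of these receptors mostly had a row only through the study's tables of P0 changes, so nothing about the lists is read from their counts. Of 13 listed immune receptors and co-receptors 4 had a row, and 3 were called higher in P0 roots and 0 in P0 shoots, with 4.69% and 6.12% of all rows called higher in root and shoot. All 3 were named from these tables. SOBIR1 had 10.09, 10.04 and 10.07 in P0 roots, against 8.94, 8.91 and 8.98 in P1.25 roots (1.12), and the co-receptor BKK1 changed by 1.04 and BIR1, a repressor of cell death, by 1.16. EFR, the bacterial elongation factor receptor and the 1 gene of this list named by the platform, changed by 0.43 in root and 0.99 in shoot and was not called.

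The same holds for most genes of the output of pattern-triggered immunity and of the salicylic acid pathway. Of 9 listed output genes 5 had a row, with 3 called higher in P0 roots (NHL10, CYP81F2 and PAD3) and 2 in P0 shoots (NHL10 and PAD3). NHL10 had 9.68, 9.68 and 9.64 in P0 roots, against 5.48, 5.41 and 5.09 in P1.25 roots (4.34), and in shoot it changed by 1.80. All 3 were named from the study's tables, and the 2 output genes named by the platform were called in neither tissue, with WRKY22 changing by 0.71 in root and 0.41 in shoot and WRKY29 by 0.70 and -0.24. Of 21 listed salicylic acid genes 9 had a row, with 7 called higher in P0 roots (PBS3, SAG101, CBP60G, SARD1, WRKY70, PR5 and DLO1) and, in P0 shoots, PR5 called higher and PR1 lower. SAG101, a partner of the immune regulator EDS1 and the 1 of them named by the platform, rose by 1.27 in root (limma adjusted p = 0.000236). Among the 3 downstream kinases and oxidases with a row, of 12 listed, MPK11 was called higher in P0 roots and MPK11 and RBOHD in P0 shoots.

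Of 6 other proteins with the DUF26 motif listed, 3 had a row. EP1, also known as CRK9, changed by 1.19 and PDLP1, a plasmodesmata protein, by 1.06 in P0 roots, and both were named from the study's root table. CRRSP29, a secreted protein with this motif that the platform names, rose by 1.26 in P0 shoots (limma adjusted p = 0.000594) and changed by 0.25 in P0 roots. Of the 8 phosphate starvation genes listed to check the treatment, 6 had a row, and all 6 were called higher at P0 in both tissues. Of all rows, 4.69% were called higher at P0 in root and 6.12% in shoot. All 6 genes were named from the study's tables, so the count cannot serve as a check of the treatment.

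Tissue markers were compared between P0 and P1.25 as well. The summed intensity of the 7 root markers was 905 to 949 in P0 roots, against 1733 to 2752 in P1.25 roots, and 521 to 576 in P0 shoots, against 207 to 306 in P1.25 shoots. That of the 9 shoot markers was 3692 to 3890 in P0 shoots, against 8523 to 13879 in P1.25 shoots, and 538 to 566 in P0 roots, against 666 to 1073 in P1.25 roots. By call, 5 of 7 root markers were lower in P0 roots, 2 of 7 were higher in P0 shoots (CASP1 and THAD1) and 9 of 9 shoot markers were lower in P0 shoots. Of all rows, 4.54% were called lower in P0 roots, and 6.12% higher and 7.62% lower in P0 shoots. These 5 root markers and 6 of the 9 shoot markers were named only from the study's tables, so nothing is read from the counts or sums. Of the markers named by the platform, EXPA7 and EXPA18 were called in neither tissue. LHCB4.2, RCA and SBPASE, also named by the platform, were called lower in P0 shoots. All 8 shoot-table receptor genes that fell in P0 shoots were higher in shoot than in root at P1.25, a direction that their naming favours. The part of tissue makeup in the changes of the receptor genes was not tested.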

How the data were processed

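The authors normalized the array intensities with RMA in Partek Genomics Suite 6.6 and deposited log2 values per transcript for 38408 rows and 18 arrays, which were used as deposited. 0 columns belonged to other samples. Rows were named from the platform's gene table (16722 rows with 1 gene, 759 with several) and from the parts held here of the study's supplementary tables (1280 rows for P0 in root, 1275 for P0 in shoot and the leading 576 of all transcripts), of which only the symbols and loci were used and not the fold changes and p-values they hold. Genome build and annotation of the array are not given in the sources used here, and the gene table (TAIR10.1) served only for names and neighbours.

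limma 3.58.1 in R 4.3.3 fitted 1 mean per group of tissue and treatment to all 18 arrays, with empirical Bayes moderation (12 residual and 2.428 prior degrees of freedom) and Benjamini-Hochberg adjustment over all rows. Following the methods, a call needed an adjusted p under 0.1 and a change beyond 2-fold at P0, or any fold at P20. The 2-fold limit was also used for root against shoot, and any fold for the interactions. Tables and figures were made with Python 3.11.15, numpy 2.4.6, pandas 2.3.3 and matplotlib 3.10.9. The fit was tested on simulated data.

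The genes, lists and alternatives were chosen with earlier results of these data known. For each comparison the text names at most 6 called genes per direction, by size of change, or the 2 with the smallest adjusted p where none was called, along with CRK5, CRK7, CRK10, CRK11, RLP30, RLP42, RLP51 and RLP52 in any case, and up to 4 called genes per list. CRK36, CRK45, RLP1, RLP23 and RLP44 were also wanted but have no row of their own name here. Other genes were named after their values were seen, to account for all 26.

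Alternatives covered the error model, the arrays in the fit, a replicate block, the rows tested, the scaling, the threshold and the fold rule. Replicate numbers were taken to pair arrays where, over all rows, the residuals of each same-numbered pair correlated by more than 0.1. This held for P20 with P1.25 shoots (0.136, 0.13 and 0.291) but not for P20 with P1.25 roots (0.0766, 0.127 and 0.225), for P0 or for root with shoot. Promoter and protein sequences were not analysed here. Intensities of markers were summed on the linear scale.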

Additional observations from a re-analysis of the deposited data

Results flagged for a closer look

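The change at P0 differed between root and shoot for 10 genes by the interaction term of the limma fit (adjusted p under 0.1). The difference, root minus shoot, was 4.13 on the log2 scale for RLP38, 2.99 for RLP36, 2.59 for RLP42, 2.16 for RLP37, 2.01 for CRK18, 1.89 for RLP46, 1.54 for CRK40, 1.48 for RLP32, 1.47 for CRK10 and -1.74 for RLP40. CRK10 owes its name to the treatment p over all 3 phosphate levels and the other 9 genes to a change at P0, so the count does not stand as independent evidence. The call of RLP40 (adjusted p = 0.0994) was lost in 18 of 30 alternatives, that of RLP46 in 8 and that of CRK18 in 3.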

How the results depend on the processing

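Counts of called genes kept within 1.5 times of their value under nearly all alternatives tried, and no called gene named for a comparison changed direction in it. Among changes that were not called, that of RLP40 in P0 roots was -0.14 and became 0.02 without the third arrays of the P1.25 and P20 groups. The median over the 26 genes then became 0.211 at P0 and -0.0409 at P20 in shoot, in place of -0.05 and 0.203. For the counts, the exception was to leave out the third arrays of those groups, which called 1 gene at P20 in root, 1 in shoot and 1 in the interaction at P20 (CRK40), where the fit to all arrays called 0, and 16 in the interaction at P0 in place of 10. Calls rose over all rows too. At P20 they were then 2.61% in root, 3.1% in shoot and 0.989% in the interaction, against 0.0469%, 0.0365% and 0.0104% with all arrays. In the interaction at P0 they were 29.9% in place of 17.1%. Leaving out each array in turn gave 13 to 19 genes at P0 in root, 11 to 13 at P0 in shoot, 0 to 0 at P20 in root, in shoot and in the interaction, 8 to 15 in the interaction at P0, 14 to 17 for root against shoot at P1.25 and 12 to 19 at P20. The 12 came without the third array of P20 shoots, and the lowest count for P0 in root came without replicate 1 or 3 of P1.25 roots or replicate 3 of P0 roots. With the replicate block, 18 genes were called at P0 in root, 13 at P0 in shoot, 12 in the interaction at P0 (RLP40 lost; CRK4, RLP21 and RLP33 gained), 17 and 18 for root against shoot at P1.25 and P20, and 0 at P20. The root falls of CRK22 and CRK26 each lost their call in 6 of 31 alternatives, and the rise of CRK7 in 3. Each gene had 1 row, so averaging the rows of a gene gave nothing to compare. In shoot, much of the spread of these genes lay in the third arrays of the P1.25 and P20 groups. Changes at P20 smaller than the spread within groups were not detectable here, in either tissue.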
